A study of Mus musculus with 9 samples.

Results

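Transcript levels of 10 immediate-early and AP-1 genes were followed in undifferentiated spermatogonia, the germ cells of the testis that include its stem cells. The genes were taken by name: the AP-1 subunit genes Fos, Fosb, Jun, Junb and Jund, the AP-1 repressor gene Jdp2, the zinc finger factor gene Egr1, and the response genes Ier2, Ier3 and Dusp1. All 10 were found among the 23813 entries of the expression table. RNA sequencing covered 9 libraries of cells from postnatal day 6 pups of Id4-eGfp transgenic mice (LT-11B6) on a C57BL/6 background, so every group carried the reporter and no cell without it was sampled. There were 3 libraries of cells sorted on EGFP alone (all ID4-EGFP+), 3 of EGFP+ cells with the strongest antibody staining against TSPAN8, a tetraspanin of the cell surface (TSPAN8-high), and 3 of EGFP+ cells with the weakest positive staining (TSPAN8-low). Each library is a separate preparation per the labels. The sources used here do not say whether the preparations came from different litters, so a p-value covers only the variation among these preparations.

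Immediate-early genes are transcribed soon after a cell receives a signal, from factors already present, and their messages are short-lived. AP-1 is a pair of basic leucine zipper proteins, either a Fos protein with a Jun protein or 2 Jun proteins, which binds the TPA response element and the cyclic AMP response element. Growth factors act on these genes through the ERK and JNK kinases, and in spermatogonial stem cells glial cell line-derived neurotrophic factor is known to induce Fos through Ras and ERK. The same genes also respond to tissue dissociation and cell sorting, which all of these libraries underwent.

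The libraries were alike in the sum of germ cell markers, while depth differed somewhat between the fractions and markers of Sertoli cells varied. Absolute depth is unknown. Depth relative to all ID4-EGFP+ replicate 1 was 1.01, 1.03 and 1.05 in TSPAN8-high and 0.856, 0.944 and 0.889 in TSPAN8-low, without overlap. It was 1.03 and 0.914 in all ID4-EGFP+ replicates 2 and 3. The estimate used only ratios near 1, so a large difference in depth could not have shown. Between 10543 and 10962 genes per library reached 1 FPKM (mapped fragments relative to transcript length and library total), and Pearson's r between libraries of 1 group was 0.981 to 0.991 across genes. Germ cell markers (Ddx4, Dazl, Zbtb16, Sall4 and Gfra1) summed to 1594 to 2346 FPKM in every library, and mean Tspan8 followed the antibody sort (34.0 FPKM in TSPAN8-high, 9.73 in TSPAN8-low). Mean Id4, the gene of the reporter, also differed between the fractions (67.2 FPKM in TSPAN8-high, 26.2 in TSPAN8-low). The 13 usable Sertoli cell markers of 14 listed summed to 189 to 390 FPKM in TSPAN8-high, 103 to 217 in all ID4-EGFP+ and 80.1 to 248 in TSPAN8-low. None of the 13 was at 0 throughout a group.

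Promoter sequence was available for 8 of the 10 genes, from RefSeq on build GRCm38.p6. The 250 bases upstream of the transcription start are shown for 5 genes whose levels are compared below: Fos, Jun and Junb as AP-1 subunits, Jdp2 as the tested gene with the largest log2 fold change of FPKM + 1, and Dusp1 as the gene with a complete cyclic AMP response element. Both strands were searched, and capitals mark the matches. The motifs were the cyclic AMP response element and its like, written TGACNTCA, and the first part of that element, written TGACG. The TPA response element bound by AP-1 was written TGANTCA and the TATA box TATAAA, and the CArG box of serum response factor was searched by its usual consensus. The GC box, written GGGCGG, and the ETS core, written GGAAG, were searched too and are not capitalized. Jdp2 has 3 annotated starts, and the window of the only one with a capitalized match is shown.
Fos, chr12:85473640-85473889, plus strand: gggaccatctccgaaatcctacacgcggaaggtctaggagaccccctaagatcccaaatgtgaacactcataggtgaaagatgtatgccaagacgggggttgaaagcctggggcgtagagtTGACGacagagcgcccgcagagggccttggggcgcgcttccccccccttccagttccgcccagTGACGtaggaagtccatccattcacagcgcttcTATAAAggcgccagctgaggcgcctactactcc
Jun, chr4:95052223-95052472, minus strand: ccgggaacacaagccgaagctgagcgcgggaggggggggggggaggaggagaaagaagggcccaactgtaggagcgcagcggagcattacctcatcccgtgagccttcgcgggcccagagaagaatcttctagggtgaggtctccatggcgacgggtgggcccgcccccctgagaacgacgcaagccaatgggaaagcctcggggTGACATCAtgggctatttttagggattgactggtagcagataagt
Junb, chr8:84978749-84978998, minus strand: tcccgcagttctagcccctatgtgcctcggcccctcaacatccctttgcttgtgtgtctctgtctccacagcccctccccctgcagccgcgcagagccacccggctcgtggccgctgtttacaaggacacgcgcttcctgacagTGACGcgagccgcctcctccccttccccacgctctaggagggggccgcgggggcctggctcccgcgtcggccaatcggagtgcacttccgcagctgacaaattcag
Jdp2, chr12:85599166-85599415, plus strand: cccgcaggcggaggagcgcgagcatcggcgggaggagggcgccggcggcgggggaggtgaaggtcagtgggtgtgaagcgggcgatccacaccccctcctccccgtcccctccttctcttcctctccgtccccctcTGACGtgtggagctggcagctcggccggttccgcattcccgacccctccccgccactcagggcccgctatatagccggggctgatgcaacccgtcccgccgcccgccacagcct
Dusp1, chr17:26508473-26508722, minus strand: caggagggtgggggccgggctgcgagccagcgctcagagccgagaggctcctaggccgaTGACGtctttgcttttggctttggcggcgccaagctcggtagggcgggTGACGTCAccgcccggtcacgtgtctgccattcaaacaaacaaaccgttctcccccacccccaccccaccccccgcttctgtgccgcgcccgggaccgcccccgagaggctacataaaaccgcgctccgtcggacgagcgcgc

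The Dusp1 window holds the palindrome TGACGTCA, at positions -143 to -136 from the start, and a separate TGACG further upstream. The Jun window holds TGACATCA, at positions -45 to -38. Fos has TGACG at 2 positions and the TATA box, and Junb, Jdp2 and Fosb have TGACG once. TGACNTCA was thus present in 2 of 8 genes and TGACG in 5, which is 2 and 5 of their 10 windows. Of 32536 distinct mouse promoter windows of the same length, 7.43% and 17.9% hold them. The 2 matches of TGACG within the palindrome of Dusp1 overlap TGACNTCA. TATAAA was present in Fos alone among the 8, in 1 of the 10 windows (12.3% of all windows). TGANTCA (6.73% of all windows) and the CArG box (1.48%) had no match in the 10 windows of the 8 genes, which says only that these letters do not occur there. The GC box was present in 6 of the 8 genes and 7 of the 10 windows (33% of all windows). The ETS core was present in 6 genes and 8 windows (64.1%).

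The level of these genes spanned a wide range. Ier2, Dusp1, Egr1, Jund and Ier3 stood above 53.8% to 72.5% of the tested genes in each group, Fos, Junb and Jdp2 above 10.0% to 34.6%, and Jun and Fosb lay below 1 FPKM in every library. The last 2 were therefore under the minimum for testing (at least 1 FPKM in at least 3 of the 9 libraries), which 11130 genes passed, and 8 of the 10 genes were tested.

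**Figure D1:**
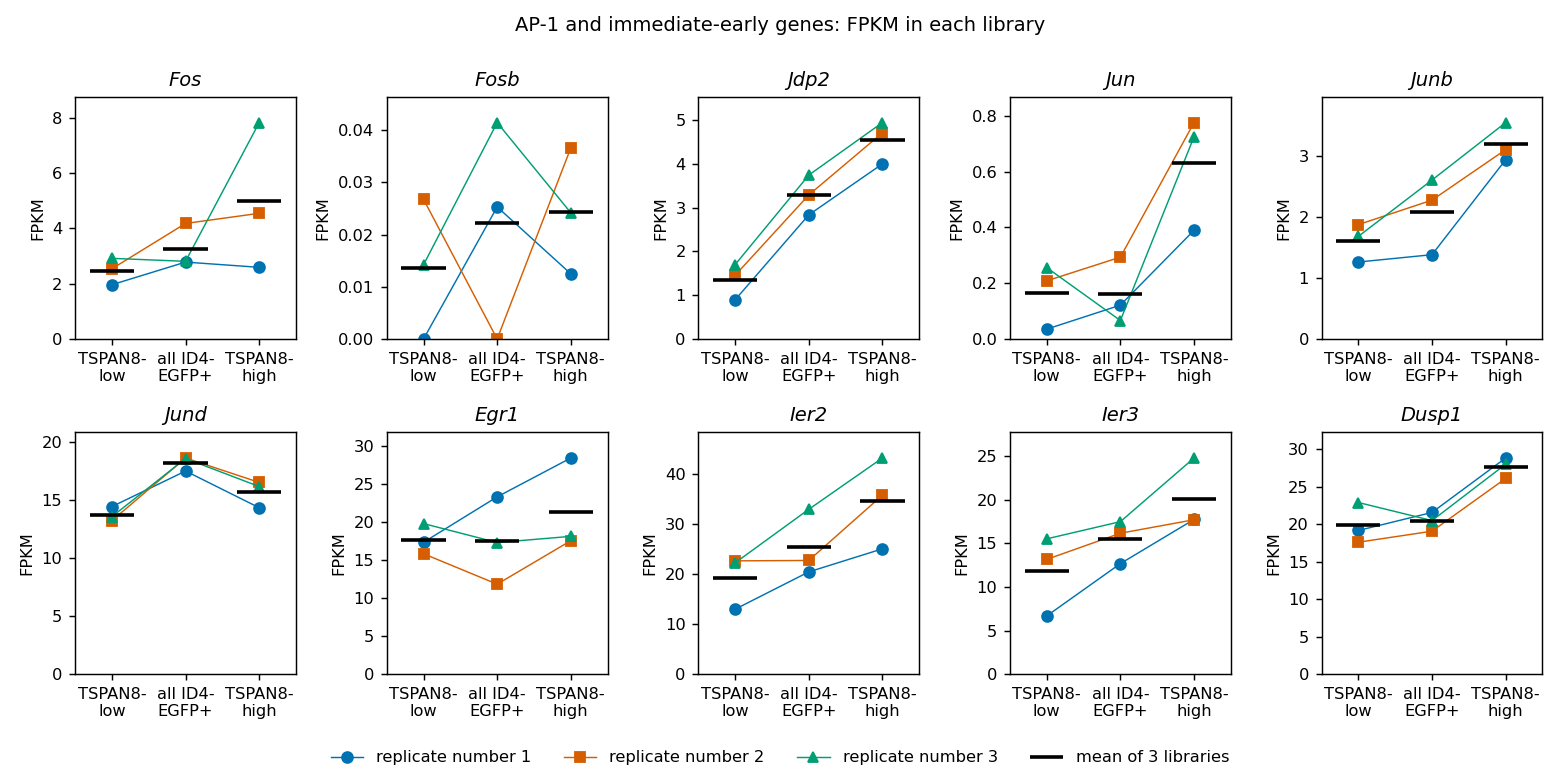
FPKM of each of the 10 genes in the 9 libraries, with TSPAN8-low, all ID4-EGFP+ and TSPAN8-high from left to right. Points are libraries, thin lines join libraries with the same replicate number and black bars are group means of 3; the 3 values of TSPAN8-high lie above those of TSPAN8-low for Jun, Junb, Jdp2, Ier2, Ier3 and Dusp1.

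The comparison of TSPAN8-high with TSPAN8-low addressed how cells that carry much TSPAN8 on their surface differ from cells that carry little. Jdp2 and Junb were higher in TSPAN8-high, and none of the 8 tested genes was lower. The fold changes of all 8 were above 0, with a median log2 fold change of 0.70 against 0.05 over all tested genes. Of 11130 tested genes, 3.41% passed as higher and 2.15% as lower (5.55% in either direction), in limma on log2(FPKM + 1) at a Benjamini-Hochberg adjusted p under 0.05. That is 379 genes higher and 239 lower. With libraries set to a common median the split was 230 and 362, and with the authors' normalized values 222 and 307. At an unadjusted p under 0.05 there were 6 of the 8 genes, against 22.0% of all tested genes. When the replicate number, which the 3 groups share, was a block in the fit, 6 of the 8 passed, all higher, against 11.8% of all tested genes (19.1% in either direction). In bulk RNA, fewer cells with a transcript and less transcript per cell cannot be told apart.

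**Figure D2:**
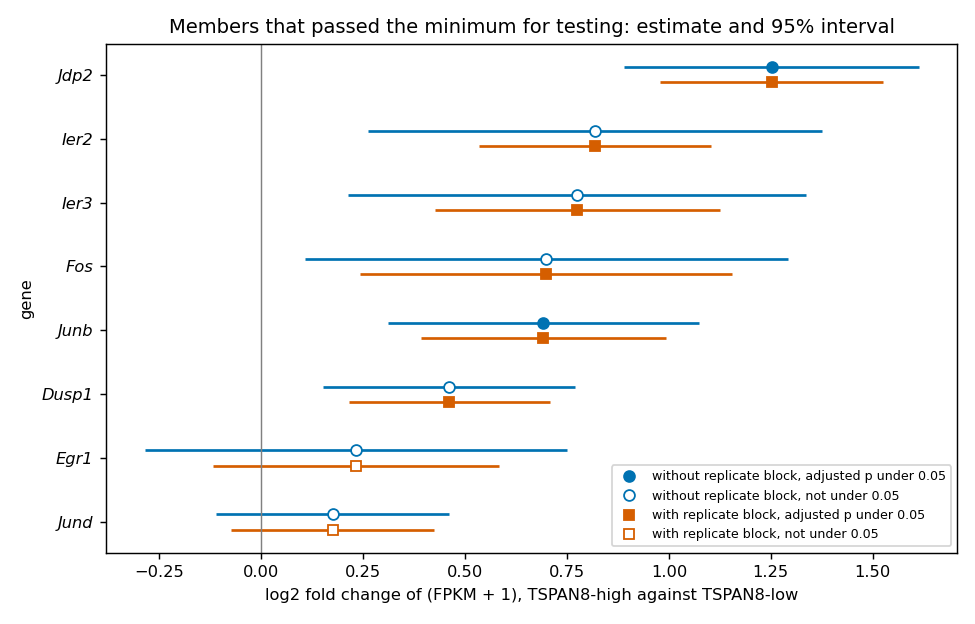
Log2 fold change of FPKM + 1, TSPAN8-high against TSPAN8-low, for the 8 tested genes, without and with the replicate block. Bars are 95% intervals from limma and filled points have an adjusted p under 0.05; Jdp2 and Junb are filled without the block, and Fos, Ier2, Ier3 and Dusp1 join them with it.

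Jdp2, whose product pairs with Jun proteins and represses AP-1 targets, had the largest log2 fold change of FPKM + 1 among the 8 tested genes. It stood at 4.00, 4.71 and 4.95 FPKM in TSPAN8-high replicates 1, 2 and 3, at 2.84, 3.29 and 3.75 in all ID4-EGFP+, and at 0.897, 1.46 and 1.70 in TSPAN8-low. The 3 groups do not overlap, and within each group replicate 1 is the lowest. The means were 4.55 ± 0.491, 3.29 ± 0.454 and 1.35 ± 0.412 FPKM (SD, n = 3 each), with 3.37 times as much in TSPAN8-high as in TSPAN8-low. TSPAN8-high exceeded TSPAN8-low by a log2 fold change of 1.25 (SE 0.17, 95% interval 0.89 to 1.61, limma adjusted p = 0.00289). Within replicate numbers 1, 2 and 3 the log2 difference was 1.40, 1.22 and 1.14. The call was lost when replicate 2 was left out of all groups (adjusted p = 0.0846), and it held under the other alternatives that could be run, including every one with the block.

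Jdp2 lies on chromosome 12 between Fos and Batf, with no protein-coding gene between them in RefSeq order. Batf, which encodes a basic leucine zipper partner of Jun proteins, stood at 7.04 ± 1.94 FPKM in the TSPAN8-high libraries, 3.99 ± 1.04 in those of all ID4-EGFP+ cells and 3.66 ± 1.40 in the TSPAN8-low libraries (SD, n = 3 each). Its log2 fold change between the fractions was 0.81 (SE 0.26, limma adjusted p = 0.0928, with the block 0.0205). With the block, leaving out number 1 or 3, from TSPAN8-high, from TSPAN8-low or from all groups, ended this call (adjusted p up to 0.126).

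Junb, the Jun subunit that is weaker than Jun as an activator, was the other gene that passed without the block. It stood at 2.95, 3.11 and 3.56 FPKM in TSPAN8-high, 1.39, 2.28 and 2.61 in all ID4-EGFP+ cells, and 1.26, 1.88 and 1.69 in TSPAN8-low. TSPAN8-high lies above both other groups, which overlap each other. The means were 3.20 ± 0.315, 2.09 ± 0.634 and 1.61 ± 0.314 FPKM (SD, n = 3 each), with 1.99 times as much in TSPAN8-high as in TSPAN8-low. The log2 fold change was 0.69 (SE 0.18, 95% interval 0.31 to 1.07, limma adjusted p = 0.0410, with the block 0.00587). Without the block the call did not survive leaving out any 1 TSPAN8-high or TSPAN8-low library (adjusted p 0.0575 to 0.135). Nor did it survive leaving out any 1 number of all groups (up to 0.215). It was also lost with no minimum (0.101), the common median (0.0704) or the authors' normalized values (0.0863). With the block it was lost only without number 3 of all groups (0.0595).

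Jun, the founding AP-1 subunit, was low. Its values were 0.389, 0.775 and 0.725 FPKM in TSPAN8-high, 0.121, 0.293 and 0.0663 in all ID4-EGFP+ cells, and 0.0354, 0.209 and 0.256 in TSPAN8-low. Each TSPAN8-high value lies above the 6 others, and the other 2 groups overlap. The means were 0.630 ± 0.210, 0.160 ± 0.118 and 0.167 ± 0.116 FPKM (SD, n = 3 each), with 3.78 times as much in TSPAN8-high as in TSPAN8-low. The exact two-sided permutation test of the fractions had p = 0.1, which is the smallest value possible with 3 libraries in each group. In a fit with no minimum the log2 fold change was 0.48 (SE 0.12, limma adjusted p = 0.0882, with the block 0.0341). The depth behind values this low is unknown, and a few fragments can set them.

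Jund, the Jun subunit that is expressed most steadily in many tissues, made up most of the Jun family transcripts. It stood at 14.3, 16.5 and 16.2 FPKM in TSPAN8-high, 17.5, 18.6 and 18.6 in all ID4-EGFP+ cells, and 14.4, 13.2 and 13.6 in TSPAN8-low. TSPAN8-high replicate 1 lies within the range of TSPAN8-low, and both fractions lie below all ID4-EGFP+. The log2 fold change between the fractions was 0.18 (SE 0.13, 95% interval -0.11 to 0.46, limma adjusted p = 0.463). Its share of summed Jun, Junb and Jund FPKM was 80.4% ± 1.15 for TSPAN8-high, 89.1% ± 2.58 for all ID4-EGFP+ and 88.5% ± 2.83 for TSPAN8-low (SD, n = 3 each). The share in TSPAN8-high lay below both other groups without overlap (exact two-sided permutation p = 0.1 each, the smallest possible), a difference of -8.15 percentage points from TSPAN8-low. Junb made up 16.4% ± 1.09, 10.1% ± 2.56 and 10.4% ± 2.16 in the same order, and Jun 3.18% ± 0.858, 0.778% ± 0.550 and 1.08% ± 0.753. The sum of the 3 genes was 19.5 ± 1.59, 20.5 ± 1.28 and 15.5 ± 0.208 FPKM. Leaving out each library in turn gave -9.23 to -6.55 percentage points for the Jund share between the fractions.

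**Figure D3:**
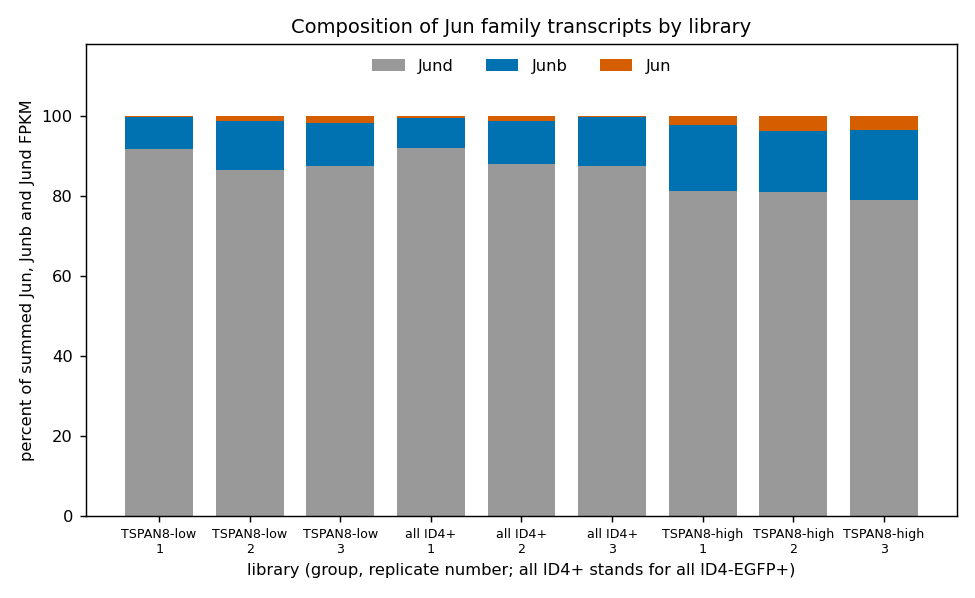
Percent of summed Jun, Junb and Jund FPKM taken by each gene, 1 stacked bar per library from 0 to 100. Jund takes 79.1% to 81.1% in the 3 TSPAN8-high libraries and 86.4% to 92.1% in the 6 others.

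Fos, the partner that gives AP-1 its high affinity for DNA, varied most among the TSPAN8-high libraries. It stood at 2.59, 4.55 and 7.83 FPKM in TSPAN8-high, 2.78, 4.18 and 2.81 in all ID4-EGFP+ cells, and 1.96, 2.54 and 2.92 in TSPAN8-low. TSPAN8-high replicate 1 lies within the range of TSPAN8-low, and replicate 3 lies above every other library. The means were 4.99 ± 2.64, 3.26 ± 0.799 and 2.47 ± 0.480 FPKM (SD, n = 3 each). The log2 fold change between the fractions was 0.70 (SE 0.27, 95% interval 0.11 to 1.29), which did not pass (limma adjusted p = 0.158) but did with the block (0.0367). This call was lost when the block was joined with a common median, no minimum or the authors' normalized values (adjusted p up to 0.161). Within numbers 1, 2 and 3 the log2 difference was 0.28, 0.65 and 1.17. The estimate fell to 0.37 without TSPAN8-high replicate 3, and without TSPAN8-high replicate 1 it was 1.02 (adjusted p = 0.0323). With the block the call was lost in 6 of 12 leave-outs (each one that dropped number 2 or 3, from TSPAN8-high, from TSPAN8-low or from all groups, adjusted p up to 0.209). Fosb, a Fos relative, ranged from 0 to 0.0415 FPKM over the 9 libraries, too low to compare.

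Egr1, a zinc finger factor induced through ERK and serum response factor, did not follow the same order. It stood at 28.4, 17.6 and 18.1 FPKM in TSPAN8-high, 23.3, 11.9 and 17.3 in all ID4-EGFP+ cells, and 17.4, 15.9 and 19.8 in TSPAN8-low. The groups overlap, and the highest value in TSPAN8-high is in replicate 1, where Fos was lowest. The log2 fold change between the fractions was 0.23 (SE 0.24, 95% interval -0.28 to 0.75, limma adjusted p = 0.602), with 0.68, 0.14 and -0.12 within numbers 1, 2 and 3. The interval includes both no difference and a difference as large as that of Junb.

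Ier2, a nuclear response gene, was the most abundant of the 10 by mean FPKM in TSPAN8-high. It stood at 25.0, 35.7 and 43.1 FPKM in TSPAN8-high, 20.4, 22.7 and 32.9 in all ID4-EGFP+ cells, and 13.0, 22.6 and 22.2 in TSPAN8-low. The fractions do not overlap, and TSPAN8-high replicate 1 lies nearest to the TSPAN8-low values. The means were 34.6 ± 9.10, 25.3 ± 6.64 and 19.3 ± 5.45 FPKM (SD, n = 3 each), with a high-to-low ratio of 1.80. Its log2 fold change was 0.82 (SE 0.26, limma adjusted p = 0.0842, with the block 0.00175), and the differences within numbers were 0.89, 0.64 and 0.93. Without the block it passed when TSPAN8-high replicate 1 was left out (0.0459), and with the block it passed in all 12 leave-outs.

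Ier3, a response gene that modulates ERK signalling and survival, stood at 17.7, 17.7 and 24.8 FPKM in TSPAN8-high, 12.7, 16.2 and 17.5 in all ID4-EGFP+ cells, and 6.70, 13.2 and 15.5 in TSPAN8-low. TSPAN8-high lies above both other groups. The means were 20.1 ± 4.07, 15.5 ± 2.48 and 11.8 ± 4.57 FPKM (SD, n = 3 each), with a high-to-low ratio of 1.70. Its log2 fold change was 0.78 (SE 0.26, limma adjusted p = 0.104, with the block 0.00711), with differences within numbers of 1.28, 0.40 and 0.64. With the block it passed in all 12 leave-outs, and not when the minimum was also dropped (0.0582).

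Dusp1, a phosphatase that switches off ERK, JNK and p38 kinases and so acts against the signal that induces it, stood at 28.8, 26.1 and 28.0 FPKM in TSPAN8-high, 21.6, 19.1 and 20.5 in all ID4-EGFP+ cells, and 19.2, 17.6 and 22.9 in TSPAN8-low. TSPAN8-high lies above both other groups, which overlap. The means were 27.6 ± 1.40, 20.4 ± 1.25 and 19.9 ± 2.72 FPKM (SD, n = 3 each), with a high-to-low ratio of 1.39. This gave a log2 fold change of 0.46 (SE 0.14, limma adjusted p = 0.0806, with the block 0.0160), with differences within numbers of 0.56, 0.54 and 0.28. With the block the call was lost in 5 of 12 leave-outs (TSPAN8-high replicate 1 or 2 alone, TSPAN8-low replicate 2 alone, or number 1 or 2 of all groups, adjusted p up to 0.128).

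The 3 values of TSPAN8-high lay wholly above those of TSPAN8-low for 5 of the 8 tested genes (Junb, Jdp2, Ier2, Ier3 and Dusp1) and for the untested Jun, where 15.8% of all tested genes did so. Sertoli markers also leaned toward TSPAN8-high, though their sums overlapped between the fractions. All 6 tested markers of the 14 listed had fold changes above 0 between the fractions (median log2 fold change 1.71). None passed without the block (4 of 6 at an unadjusted p under 0.05, against 22.0% of all tested genes). All 6 passed as higher with it, where 11.8% of all tested genes did. Clu, the secreted clusterin of Sertoli cells, stood at 19.1, 24.2 and 60.6 FPKM in TSPAN8-high, against 2.38, 3.45 and 31.6 in TSPAN8-low, so replicate 3 was the highest in both. TSPAN8-low replicate 3 thus exceeded TSPAN8-high replicates 1 and 2 in Clu, while its Jdp2 (1.70 FPKM) and Junb (1.69) lay below every TSPAN8-high library. Across the 9 libraries Pearson's r with Clu was 0.84 for Ier3, 0.80 for Junb and Ier2, 0.69 for Fos and 0.68 for Jdp2. It was 0.65 for Dusp1 and Jun, 0.26 for Fosb, 0.20 for Jund and -0.01 for Egr1. These r describe libraries that share groups and numbers. The part of Sertoli cell RNA in these differences was not tested. Of the 5 germ cell markers, 1 passed as higher in TSPAN8-high and 3 with the block, where 3.41% and 11.8% of all tested genes did. Their median log2 fold change was 0.55, with 4 of the 5 above 0. Markers of the other cell types had lower sums. These were at most 16.0 FPKM for leukocytes, 13.1 for interstitial stroma, 7.63 for peritubular myoid cells, 6.48 for Leydig cells and 1.40 for endothelium. In TSPAN8-high against TSPAN8-low, sums were 3.57 to 7.63 against 1.55 to 3.73 for myoid cells and 3.83 to 13.1 against 1.78 to 8.42 for stroma. For leukocytes they were 13.8 to 16.0 against 6.53 to 15.9, and for Leydig cells 0.375 to 1.44 against 0.325 to 6.48. The part of RNA from these cell types in the differences was not tested.

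Each fraction was also compared with all ID4-EGFP+ cells, which both comparisons share as control libraries. In TSPAN8-high against all ID4-EGFP+, none of the 8 genes passed (0 also with the block), where 0.144% of tested genes passed without the block and 3.09% with it. At an unadjusted p under 0.05 there were 3 (Dusp1, Junb and Jdp2), against 9.74% of all tested genes. With the block there were 5, against 18.7%. Dusp1 had the smallest p, with a log2 fold change of 0.42 (SE 0.14, limma adjusted p = 0.309). With the block this p was 0.0684, and 0.0434 when TSPAN8-low replicate 1 was left out as well. The estimates for Junb, Ier2, Fos, Jdp2 and Ier3 lay between 0.35 and 0.46, that of Egr1 was 0.29 and that of Jund was -0.21, with a median of 0.39 against -0.01 for all tested genes. Values of Junb, Jdp2, Ier3, Dusp1 and the untested Jun lay wholly above those of all ID4-EGFP+ (6.8% of tested genes did) and those of Jund wholly below (8.35%).

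In TSPAN8-low against all ID4-EGFP+, no tested gene of the 11130 passed without the block (0%), including these 8. At an unadjusted p under 0.05 there were 909 genes (8.17%), 2 of them Jdp2 and Jund (with the block 4 of the 8, against 19.0%). Jdp2 had a log2 fold change of -0.88 (SE 0.17, limma adjusted p = 0.408). With the block it was 1 of 5 genes that passed (0.0449% of tested genes, adjusted p = 0.0351). That call was lost in each of the 12 leave-outs with the block (0.0515 to 0.216). Jund had -0.38 (SE 0.13, adjusted p = 0.600, with the block 0.126). The median of the 8 was -0.33 against -0.07 for all tested genes, and the values of Jdp2 and Jund lay wholly below those of all ID4-EGFP+ (10.8% of tested genes did).

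The mean of TSPAN8-high and TSPAN8-low was set against all ID4-EGFP+, to compare cells that were also split by antibody stain with cells sorted on EGFP alone. Cells with staining between the strongest and the weakest were in neither fraction, while all ID4-EGFP+ was not split by stain. Handling and cell composition therefore cannot be told apart in this comparison. None of the 8 genes passed, with or without the block, and over all tested genes 0% passed without it and 0.018% with it. At an unadjusted p under 0.05 there was 1 of the 8, Jund, against 3.39% of all tested genes (with the block 2, against 10.0%). The estimates ran from -0.30 for Jund (SE 0.11, limma adjusted p = 0.961) and -0.25 for Jdp2 to 0.19 for Dusp1, with a median of 0.04 against -0.05 over all tested genes. For Fos the estimate was 0.06 (SE 0.24), for Ier2 0.02 (SE 0.22) and for Egr1 0.17 (SE 0.21). These errors leave room for differences in either direction.

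Other genes of the same response were counted from lists that did not include the 10. Of 13 further AP-1 and related basic leucine zipper genes, 7 were tested and none passed between the fractions (median log2 fold change -0.10). At an unadjusted p under 0.05 there was 1 of the 7, Batf, which was also the 1 that passed with the block. Atf2, a basic leucine zipper partner of Jun, had -0.17 (limma adjusted p = 0.478).

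Of 32 further fast response genes, 22 were tested. In TSPAN8-high 2 were higher and 1 lower, where 3.41% and 2.15% of all tested genes were. With the block 4 were higher and 2 lower, where 19.1% passed in either direction. The median log2 fold change was 0.22. Egr2, a zinc finger relative of Egr1, stood at 9.74 ± 1.38 FPKM in the TSPAN8-high libraries against 3.81 ± 1.19 in TSPAN8-low (SD, n = 3 each), a log2 fold change of 1.18 (SE 0.22, limma adjusted p = 0.0114). Klf6, a Krüppel-like factor gene, stood at 5.33 ± 0.066 and 2.25 ± 0.350 FPKM (0.97, SE 0.15, limma adjusted p = 0.00577). Gadd45b, a stress response gene whose product activates p38 and JNK pathways, was lower, at 3.76 ± 0.602 against 7.88 ± 1.40 FPKM (-0.90, SE 0.16, limma adjusted p = 0.00995). Calls for all 3 held with the block in all 12 leave-outs. Without it, leaving out number 2 of all groups lost each of them (adjusted p 0.0976 for Egr2, 0.0916 for Klf6 and 0.184 for Gadd45b), as did number 1 for Egr2 (0.0719) and Gadd45b (0.0520), number 3 for Klf6 (0.0657) and TSPAN8-high replicate 2 for Gadd45b (0.0528). With no minimum, Egr2 had an adjusted p of 0.0534. With the block Nfkbia, which encodes an inhibitor of NF-kappa-B (0.72), and Tiparp (0.41) were also higher, and Gadd45g was lower (-0.54).

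Of 19 genes for kinases and factors upstream of AP-1, 18 were tested, with 1 higher and 1 lower in TSPAN8-high (3 and 1 with the block) and a median of 0.15. Over all tested genes 5.55% passed in either direction, and 19.1% with the block. Mapk9, which encodes the kinase JNK2, stood at 28.4 ± 1.90 against 18.1 ± 1.76 FPKM (SD, n = 3 each), a log2 fold change of 0.63 (SE 0.14, limma adjusted p = 0.0239). Mkl2, which encodes a coactivator of serum response factor, stood at 9.83 ± 1.08 against 16.3 ± 1.87 FPKM (-0.68, SE 0.16, limma adjusted p = 0.0332). Without the block leave-outs ended the Mapk9 call in 7 of 12 cases (adjusted p up to 0.251) and the Mkl2 call in 8 of 12 (up to 0.254). With it both held in all 12. The JNK3 gene Mapk10 (0.48) and the JNK kinase gene Map2k4 (0.41) passed as higher with the block.

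Of 13 heat shock genes, some of which also rise with cell handling, 12 were tested. None passed in limma between the fractions, and 4 had an unadjusted p under 0.05 (22.0% of all tested genes did). With the block 5 passed as higher (Dnaja1, Dnajb1, Hspa5, Hspa8 and Hsph1), where 11.8% of all tested genes did. The median log2 fold change of the 12 was 0.37, and 10 of the 12 were above 0. Among the 13 listed, Hspa1a and Hspe1 were lower in TSPAN8-high within 3 of 3 replicate numbers, and Hspa1b within 2 of 3. Hspa8, a constitutive HSP70 chaperone gene, stood at 1617 ± 316 against 1118 ± 78.9 FPKM (0.52, limma adjusted p = 0.141), and Dnajb1, its HSP40 partner, at 53.2 ± 2.40 against 39.7 ± 4.05 (0.42, adjusted p = 0.108). With the block, leave-outs ended the Dnajb1 call in 6 of 12 cases (number 1 or 2 from TSPAN8-high, number 2 from TSPAN8-low, or any number of all groups, adjusted p up to 0.124). They ended the Hspa8 call in 5 of 12 (number 2 or 3 from TSPAN8-high or from all groups, or number 3 from TSPAN8-low, up to 0.136). The part of cell handling in the differences of the AP-1 and immediate-early genes was not tested.

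**Figure D4:**
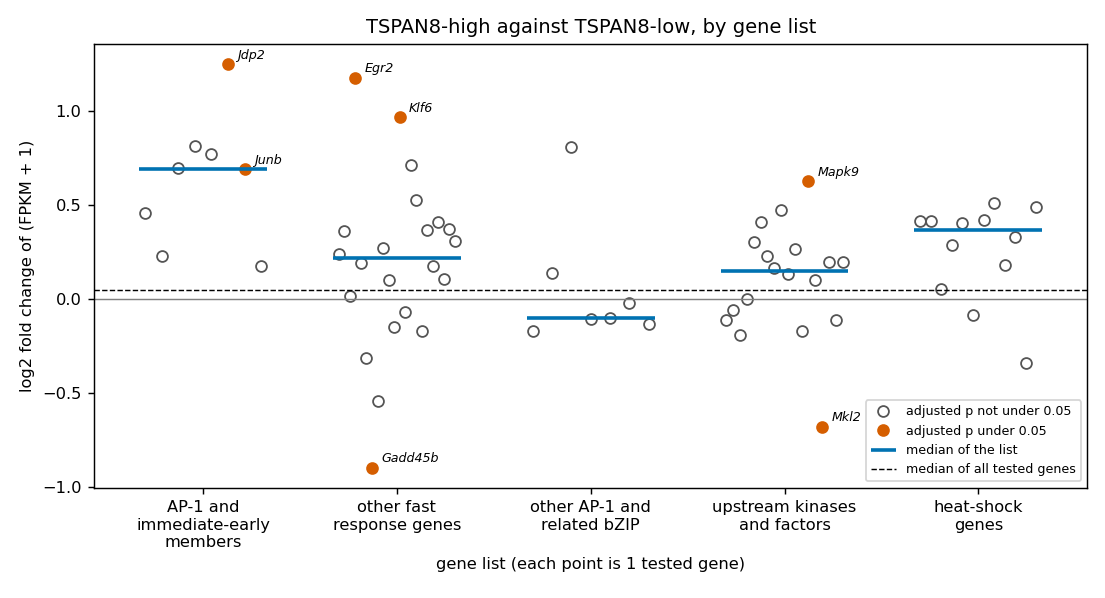
Log2 fold change of FPKM + 1, TSPAN8-high against TSPAN8-low, for tested genes of each list, 1 point per gene. Filled points passed in limma without the block, blue marks are list medians and the dashed line is the median of all tested genes (0.05); the 8 AP-1 and immediate-early genes all lie above 0.

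The 10 genes did not form 1 pattern over the libraries. Pearson's r of log2(FPKM + 1) over the 9 libraries, which share groups and numbers, was 0.92 for Ier2 with Ier3, 0.90 for Junb with Ier2 and 0.86 for Jdp2 with Ier2. Fos and Egr1 had r of -0.25, and Egr1 and Dusp1 0.61. For deviations from the group means, Jdp2 with Ier2 and Jdp2 with Ier3 had 0.93, while Fos with Egr1 had -0.66 and Jund with Egr1 -0.70. Outside the 10, the tested genes most like Fos were Limk2, a kinase gene of actin turnover (r = 0.958), Atp13a2, a lysosomal transporter gene (0.953), and Gon4l (0.950). Those most like Junb were Nxph4, a neurexophilin gene (0.980), Tpm1, a tropomyosin gene (0.956), and Gbp3, a guanylate-binding protein gene (0.955). Those most like Egr1 were Sptssa, which encodes a small subunit of serine palmitoyltransferase (0.961), Dmrtc2 (0.952) and Snapin (0.944). At r of at least 0.9 there were 48 genes for Fos, 83 for Junb and 14 for Egr1.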

How the data were processed

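RNA from sorted cells was made into cDNA with SMART-Seq v4 and into Nextera XT libraries, per the labels' protocols. This kit does not mark strand, so antisense reads are not separated. The authors deposited Cufflinks FPKM values, the values tested here. The submitters' processing notes name FastQC, TopHat2 2.0.12, Bowtie2 2.2.3.0, Cufflinks and build mm9. A deposited table of normalized values, treated as signal, served as an alternative; how the authors normalized it is not given in the sources used. The deposited log10 table was not used.

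The 10 genes and the lists were chosen with earlier results of these data known. Named genes are all 10, the genes of each other list past the threshold between the fractions (at most 6, or the 2 with the smallest p where none passed), and the 3 genes most like Fos, Junb and Egr1. Entries with a symbol on more than 1 entry (764) or a date as symbol (27) were left out. Limma 3.58.1 in R 4.3.3 (eBayes with trend, two-sided) was fitted to log2(FPKM + 1) of all 9 libraries without scaling, with Benjamini-Hochberg adjustment over 11130 genes and a threshold of 0.05. A fold change on this scale understates that of low genes. Python 3.11.15 and matplotlib 3.10.9 made tables and plots, and the fit was tested on simulated data. Cufflinks values of genes with near-identical copies are uncertain.

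Groups share replicate numbers in the labels. Deviations from the group means correlated with r of 0.264 to 0.481 in the 9 same-numbered pairs and -0.455 to 0.277 in the 18 other pairs. The ranges overlap slightly, and since deviations cancel within a group they are not independent. The main fit used no pairing, and the numbers entered only the alternative fits with the block. Pairing by number comes from the data, not from the labels.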

Additional observations from a re-analysis of the deposited data

How the results depend on the processing

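Of the 8 tested genes, the number that passed between TSPAN8-high and TSPAN8-low was 2, and it was 1 with no minimum, with a common median or with the authors' normalized values, and 0 with a minimum of 5 FPKM, under which Fos, Junb and Jdp2 were not tested. With the replicate block it was 6, and 5 when the block was joined with a common median or the authors' normalized values. With the block and no minimum, where all 10 genes were tested, 5 of the 10 passed, Jun among them. Leaving out 1 library, or 1 number of all groups, gave 0 to 3 without the block and 4 to 6 with it. Against all ID4-EGFP+, TSPAN8-high had 0 to 1 over all leave-outs, and TSPAN8-low had 1 with the block alone, and 1 when the block was joined with a common median or with the authors' normalized values. With the mean of both fractions the count was 0 under every alternative run; a fit of only the groups compared was not run there, since it needs all 3. The block changed no call of the 8 genes other than those named above. Fits with the block other than the block alone or with a common median were chosen after seeing the data.

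Estimates near 0 changed sign. Dusp1, TSPAN8-low against all ID4-EGFP+, was 0.0505 with a common median and 0.0432 with the authors' normalized values, with or without the block, and -0.141 to 0.0399 over leave-outs. Ier3, mean of both fractions, was 0.0101 and 0.0239 with the same scalings, and -0.162 to 0.130 over leave-outs. Over leave-outs Egr1 in TSPAN8-low against all ID4-EGFP+ ran from -0.18 to 0.29, and for the mean of both fractions Fos ran from -0.22 to 0.22, Junb from -0.0604 to 0.239, Egr1 from -0.0658 to 0.394 and Ier2 from -0.12 to 0.22. The cause was not tested. Between the fractions no estimate of the 8 genes changed sign under any alternative run, and the lowest for Egr1 was 0.0057. The unknown depth limits Jun and Fosb, and 3 libraries a group limit every exact permutation p to at least 0.1.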
